A study of Mus musculus with 6 samples.

Results

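The citrate cycle genes described here were Cs, Idh1, Idh2, Idh3a, Idh3b, Ogdh, Sucla2, Sdha and Mdh2. They were chosen by name, as the rows of the deposited expression table that carry these gene symbols, and all 9 were found among its 54532 gene rows. RNA from the hearts of 6 mice was sequenced to ask how loss of Mrps5, which encodes a small-subunit protein of mitochondrial ribosomes, changes the heart transcriptome. The 3 control mice (Ctrl) were Mrps5 fl/fl, with both copies of the gene flanked by loxP sites. The 3 conditional knockout mice (cKO) were Mrps5 fl/fl; MCM, where MCM is the αMHC-MerCreMer transgene, a Cre recombinase made in cardiomyocytes and active only with tamoxifen. Mice of both groups received tamoxifen by intraperitoneal injection at 45 mg per kg per day for 5 days from 8 weeks of age, and hearts were taken 12 weeks later. The deletion was therefore limited to cardiomyocytes of a whole tissue sample, and no group carried the Cre transgene without the floxed gene, so the transgene and the deletion cannot be told apart.

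The citrate cycle oxidises acetyl groups in the mitochondrial matrix and passes the electrons to NAD and to the respiratory chain. The heart, which draws most of its ATP from oxidative phosphorylation, holds the enzymes of the cycle at high levels. Isocitrate is oxidised by 3 enzymes with different cofactors and places. IDH3 is the NAD-linked enzyme of the cycle, built from a catalytic alpha subunit (Idh3a) with beta and gamma subunits (Idh3b, Idh3g). IDH2 is the NADP-linked enzyme of the matrix, and IDH1 its counterpart in the cytosol and peroxisomes. All of the genes described here are nuclear, and their proteins are made outside the mitochondrion.

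Levels are given as FPKM, fragments per kilobase of gene scaled to library size, which can be compared between genes. The hearts held 15989322 to 24875499 counted reads. Mrps5 itself stood at 5.20, 6.45 and 6.33 FPKM in Ctrl and 1.12, 1.23 and 1.31 FPKM in cKO, 20.4% of the Ctrl mean. A test in limma on log2(FPKM + 1), with Benjamini-Hochberg adjustment over the 12944 genes averaging 0.5 FPKM or more, called 33.3% of the genes at an adjusted p below 0.05. It called 17.0% lower and 16.3% higher in cKO, and log2 fold changes over all genes had a median of -0.02. The cKO replicate 2 heart stood apart from the other 5, with Xist at 10.7 FPKM and the Y-linked genes Ddx3y, Eif2s3y, Uty and Kdm5d at 0. Xist was at most 0.127 FPKM in the others, where these Y-linked genes were detected. This is the expression pattern of a female heart, and no Ctrl heart had it. The labels do not give sex, and the paper states that its mice were all male. The part of sex in the differences between the groups was not tested. The library sizes implied by the FPKM values were 0.913 to 0.98 of the counted reads in Ctrl and 1.06 of them in each cKO heart. When every heart was scaled to its FPKM total instead, an alternative chosen after seeing the data, the median of all genes moved by 0.15 on the log2 scale, and the share of calls that were higher in cKO went from 48.9% to 76.3%. With scaling to the genes not encoded in mitochondrial DNA that share was 62.0%.

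Most of the 9 genes were lower in the cKO hearts. In limma, 5 of the 9 fell (Idh2, Sucla2, Idh3b, Sdha and Ogdh), against 17.0% of all genes tested that were called lower, and 0 were called higher. All 9 had a negative log2 fold change, so 0 were also higher at an unadjusted p below 0.05 or in a voom fit of read counts. Their median log2 fold change was -0.42. In 7 of the 9 every cKO heart lay below every Ctrl heart, which held for 26.4% of all genes tested (51.2% had groups apart in either direction). Cs and Idh3a were the exceptions, with groups that overlapped. The count of 5 fell to 3 when hearts were scaled to their FPKM total, with Idh2, Idh3b and Sucla2 remaining. Without cKO replicate 2 the count was 6, with Idh1 added. In bulk tissue, fewer cells of a type and less RNA per cell cannot be told apart.

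**Figure D1:**
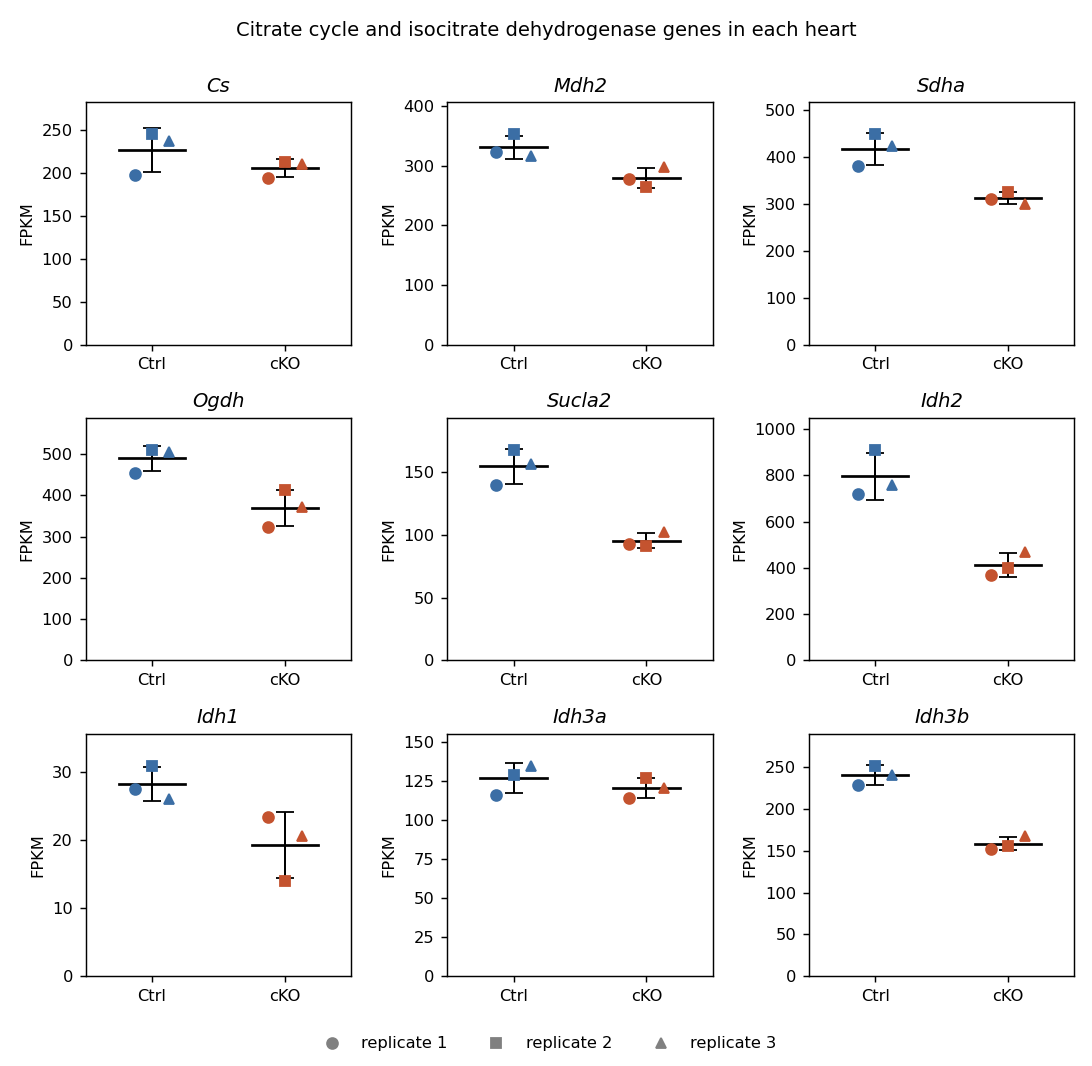
FPKM (vertical axes, starting at 0) of the 9 genes in each Ctrl heart (blue) and cKO heart (orange); lines are means, bars are ± SD, n = 3 a group, and the symbol gives the replicate. Idh2 lay between 719 and 910 FPKM in Ctrl and between 368 and 469 in cKO, whereas the groups overlapped for Cs and Idh3a.

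Idh2 had the highest level of the 9 genes in Ctrl and the largest decrease. Its level was 719, 910 and 758 FPKM in the Ctrl hearts and 368, 401 and 469 FPKM in the cKO hearts. Every cKO heart was far below the lowest Ctrl heart. The mean went from 796 ± 101 (SD, n = 3) to 413 ± 51.7 (n = 3), 51.9% of Ctrl, a log2 fold change of -0.94 ± 0.13 (SE, 95% interval -1.25 to -0.64, limma adjusted p = 0.00306). These values rested on 16111 to 49008 reads a heart. Idh2 lies on chromosome 7 from 80094846 to 80115392 on the minus strand, and its longest coding transcript has 11 exons. A short provisional gene model on the same strand inside it, Gm45203, had at most 60 reads in a heart.

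The NAD-linked enzyme changed unevenly over its subunits. Idh3b, the beta subunit, stood at 229, 252 and 241 FPKM in Ctrl and 152, 156 and 167 FPKM in cKO. The groups were well apart, and the mean fell from 240 ± 11.8 to 159 ± 7.79 FPKM (SD, n = 3 each), with a log2 fold change of -0.60 ± 0.08 (SE, limma adjusted p = 0.00271). Idh3a, the catalytic subunit, stood at 116, 129 and 135 FPKM in Ctrl and 114, 127 and 121 FPKM in cKO. Here the groups overlapped almost entirely, and the log2 fold change of -0.07 (95% interval -0.27 to 0.14, limma adjusted p = 0.572) did not pass the test. The third subunit gene, Idh3g, fell by 0.30 on the log2 scale (SE 0.09, limma adjusted p = 0.0393), a call that was lost in 10 of 15 alternatives, among them the replicate block and 5 of the 6 fits without 1 heart. Idh3b lies on chromosome 2 from 130279309 to 130284547 (minus strand, 12 exons) and Idh3a on chromosome 9 from 54586334 to 54604661 (plus strand, 11 exons). Idh3b overlaps the end of Nop56, on the opposite strand, by a few bases, and Nop56 was at 5.81 FPKM in Ctrl and 8.54 in cKO.

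Idh1 was the least abundant of the isocitrate dehydrogenase genes and varied most among the cKO hearts. Its level was 27.5, 30.9 and 26.0 FPKM in Ctrl and 23.3, 13.9 and 20.6 FPKM in cKO. All cKO hearts were below all Ctrl hearts, with cKO replicate 2 the lowest. The log2 fold change was -0.55 ± 0.18 (SE, 95% interval -0.97 to -0.12), and the limma adjusted p of 0.0550 did not pass. Without cKO replicate 2 it was -0.34 with an adjusted p of 0.0491. Without cKO replicate 1 it was -0.69 with an adjusted p of 0.0341. Idh1 lies on chromosome 1 from 65158616 to 65186500 on the minus strand.

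Ratios within each heart do not depend on how the hearts are scaled to each other. For 18 such ratios an exact two-sided permutation test was run. With 3 hearts against 3 its smallest possible p is 0.1, which becomes 0.18 after Benjamini-Hochberg adjustment over the 18, so no ratio could pass. The share of Idh2 in the sum of Idh2 and Idh3a was 86.1, 87.6 and 84.9% in Ctrl and 76.3, 76.0 and 79.6% in cKO, without overlap (exact permutation p = 0.1). Relative to the NAD-linked catalytic subunit, the transcript of the NADP-linked matrix enzyme was thus lower in every cKO heart than in any Ctrl heart. The log2 ratio of Idh3b to Idh3a was 0.98, 0.97 and 0.84 in Ctrl and 0.42, 0.30 and 0.47 in cKO, a mean difference of -0.53 or a ratio of 0.692 (exact permutation p = 0.1). The log2 ratio of Idh3b to Idh3g averaged 0.72 in Ctrl and 0.42 in cKO, a difference of -0.30, and that of Idh3g to Idh3a averaged 0.21 and -0.03, a difference of -0.23, both without overlap (exact permutation p = 0.1 for each). In every cKO heart Idh3b thus stood lower relative to both partner subunits than in any Ctrl heart. Between the NADP-linked genes, Idh2 made up 96.3, 96.7 and 96.7% of the sum of Idh1 and Idh2 in Ctrl and 94.0, 96.6 and 95.8% in cKO, and the groups overlapped (exact permutation p = 0.2).

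**Figure D2:**
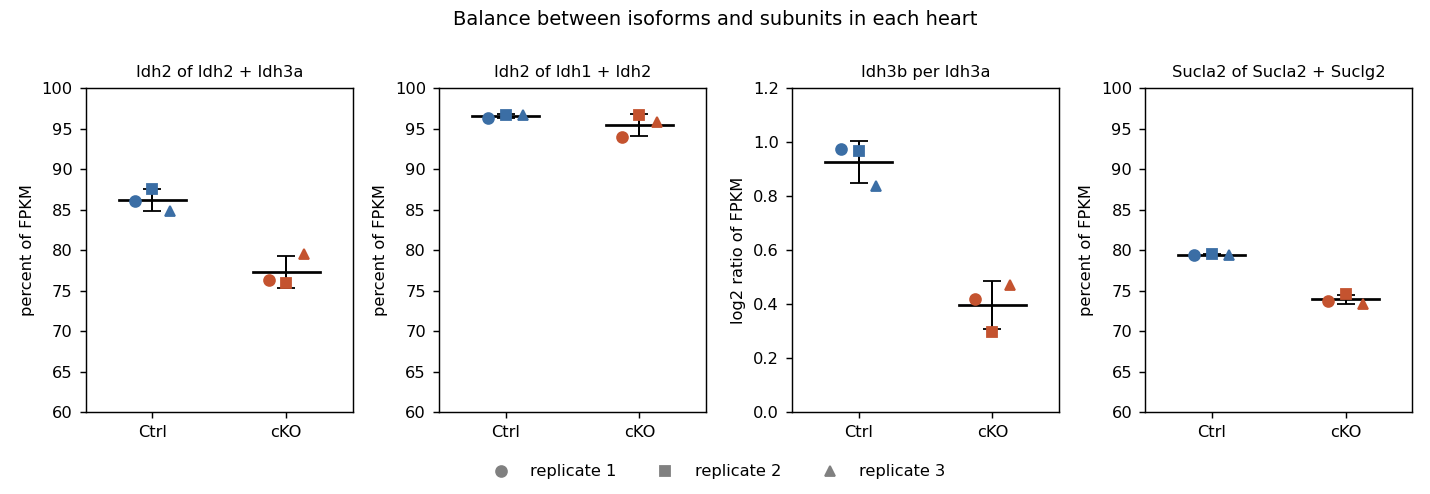
Isoform and subunit balance in each heart: percent of summed FPKM (axes from 60 to 100%) for Idh2 of Idh2 + Idh3a, Idh2 of Idh1 + Idh2 and Sucla2 of Sucla2 + Suclg2, and the log2 ratio of Idh3b to Idh3a; lines are means, bars are ± SD, n = 3 a group. The Ctrl and cKO hearts were apart in 3 of the 4 panels and overlapped for Idh2 of Idh1 + Idh2.

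Ogdh encodes the E1 subunit of the oxoglutarate dehydrogenase complex, which makes succinyl-CoA. Its level was 454, 511 and 505 FPKM in Ctrl and 324, 413 and 373 FPKM in cKO. The groups did not overlap, with the highest cKO heart some way below the lowest Ctrl heart. The mean was 490 ± 31.4 in Ctrl and 370 ± 44.4 FPKM in cKO (SD, n = 3 each), and Ogdh fell by 0.41 on the log2 scale (SE 0.11, limma adjusted p = 0.0291). This call was lost without Ctrl replicate 2 (adjusted p = 0.0869), Ctrl replicate 3 (0.0929), cKO replicate 1 (0.0696) or cKO replicate 3 (0.0687), and under FPKM-total scaling, where the log2 fold change was -0.20. The complex's other subunits were closer to Ctrl, Dlst (E2) at -0.28 and Dld (E3) at -0.20 on the log2 scale (limma adjusted p = 0.0806 and 0.111). The ratio of Ogdh to Dlst overlapped between the groups, and that of Ogdh to Dld did not, with a mean log2 difference of -0.21 (exact permutation p = 0.1). Ogdh lies on chromosome 11 from 6291633 to 6356642 on the plus strand and has 23 exons.

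Ogdhl, a paralogue of Ogdh, decreased more. It was at 51.6, 65.0 and 65.5 FPKM in Ctrl and 19.1, 18.9 and 24.9 FPKM in cKO, a log2 fold change of -1.49 ± 0.14 (SE, limma adjusted p = 0.00111). Its share of the summed Ogdh and Ogdhl transcript, a ratio chosen after the values were seen, was 10.2, 11.3 and 11.5% in Ctrl and 5.57, 4.39 and 6.27% in cKO. How reads that fit both paralogues were counted was not stated.

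Sucla2 encodes the beta subunit of the ATP-forming succinyl-CoA ligase, the step that makes ATP directly in the cycle. Its level was 139, 168 and 156 FPKM in Ctrl and 92.6, 91.4 and 102 FPKM in cKO. The mean was 154 ± 14.2 in Ctrl and 95.4 ± 5.88 in cKO (SD, n = 3 each), 61.8% of Ctrl, with a log2 fold change of -0.69 ± 0.09 (SE, limma adjusted p = 0.00302). The cKO hearts were close to each other and all below Ctrl. The shared alpha subunit, Suclg1, fell by 0.27 (limma adjusted p = 0.0299, a call lost in 8 of 15 alternatives), and the GTP-forming beta subunit, Suclg2, was at -0.24 (adjusted p = 0.106, not called). Sucla2 made up 79.4, 79.6 and 79.4% of the summed beta subunits in Ctrl and 73.8, 74.6 and 73.4% in cKO (exact permutation p = 0.1). The Ctrl hearts thus had nearly the same share, and all cKO hearts were lower. Relative to Suclg1, Sucla2 differed by -0.42 on the log2 scale without overlap, whereas Suclg2 differed by 0.03 with overlap. Sucla2 lies on chromosome 14 from 73525319 to 73596142 on the plus strand.

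Sdha encodes the flavoprotein of succinate dehydrogenase, the enzyme that is also complex II of the respiratory chain. Its level was 382, 450 and 423 FPKM in Ctrl and 311, 326 and 300 FPKM in cKO. The groups were apart, and the mean fell from 418 ± 34.0 to 312 ± 13.1 FPKM (SD, n = 3 each), a log2 fold change of -0.42 ± 0.09 (SE, limma adjusted p = 0.0128). Under FPKM-total scaling it was -0.21, with an adjusted p of 0.0817. The other 3 subunit genes were also called lower in limma, Sdhb by -0.34 (adjusted p = 0.0254), Sdhc by -0.51 (0.00762) and Sdhd by -0.41 (0.0246) on the log2 scale. The call was lost in 5 of 15 alternatives for Sdhb, in 6 for Sdhd and in 0 for Sdhc. The ratio of Sdha to each of them overlapped between the groups, with mean log2 differences of -0.08, 0.09 and -0.003; differences between the subunits were not detectable at this spread, which does not show that they are the same. Of 4 assembly factors, Sdhaf4 fell by 0.59 and Sdhaf1 by 0.33 on the log2 scale, and Sdhaf2 and Sdhaf3 did not pass. Over all genes tested, 17.0% were called lower. Sdhaf1 was low, averaging 1.54 FPKM in Ctrl and 1.02 in cKO on 36 to 88 reads a heart. The call of Sdhaf1 was lost in 10 of 15 alternatives, voom included (adjusted p = 0.0639), and that of Sdhaf4 in 0. Sdha lies on chromosome 13 from 74322254 to 74350280 on the minus strand, with 15 exons.

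Mdh2, the mitochondrial malate dehydrogenase that regenerates oxaloacetate, was at 323, 353 and 316 FPKM in Ctrl and 277, 265 and 298 FPKM in cKO. The groups did not overlap, but the log2 fold change of -0.24 ± 0.08 (SE, 95% interval -0.44 to -0.04) had a limma adjusted p of 0.0680 and did not pass. Cs encodes citrate synthase, which joins acetyl-CoA to oxaloacetate. The activity of this enzyme, widely used as a measure of mitochondrial content, was not measured here. The Cs transcript was at 198, 246 and 237 FPKM in Ctrl and 195, 214 and 211 FPKM in cKO. These groups overlapped, and the log2 fold change was -0.13 (95% interval -0.38 to 0.11, limma adjusted p = 0.353). The direction of the differences in Cs and Idh3a turned under FPKM-total scaling, to 0.07 and 0.13, and that of Idh3a also with scaling to the genes not encoded in mitochondrial DNA, to 0.02. The log2 ratio of Cs to Mdh2 overlapped between the groups as well. Mdh2 lies on chromosome 5 from 135778480 to 135790398, and Cs on chromosome 10 from 128337734 to 128362479, both on the plus strand.

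The start regions of the 3 genes that were called lower under every alternative are shown because these 3 had the largest decreases among the members that were called. RefSeq promoters (mouse build GRCm38.p6) were found for 8 of the 9 genes, Idh3a not being among them. The lines give the 250 bases before the annotated start, 5′ to 3′ on the gene's strand. Capitals mark the GC box, searched as GGGCGG, and the CCAAT box, searched as CCAAT, each on both strands, so that CCGCCC and ATTGG are their reverse complements.
Idh2, chr7:80115351-80115600, minus strand: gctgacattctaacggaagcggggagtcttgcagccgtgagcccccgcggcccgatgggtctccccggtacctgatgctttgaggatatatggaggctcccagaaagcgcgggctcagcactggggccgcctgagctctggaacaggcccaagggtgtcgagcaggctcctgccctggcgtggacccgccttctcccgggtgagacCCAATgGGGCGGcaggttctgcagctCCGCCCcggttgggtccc
Sucla2, chr14:73552536-73552785, plus strand: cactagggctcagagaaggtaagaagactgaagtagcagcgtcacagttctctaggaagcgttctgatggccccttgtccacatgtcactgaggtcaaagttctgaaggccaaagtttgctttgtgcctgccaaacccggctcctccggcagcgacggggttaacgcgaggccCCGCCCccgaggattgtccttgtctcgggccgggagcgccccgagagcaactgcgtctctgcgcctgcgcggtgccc
Idh3b, chr2:130284452-130284701, minus strand: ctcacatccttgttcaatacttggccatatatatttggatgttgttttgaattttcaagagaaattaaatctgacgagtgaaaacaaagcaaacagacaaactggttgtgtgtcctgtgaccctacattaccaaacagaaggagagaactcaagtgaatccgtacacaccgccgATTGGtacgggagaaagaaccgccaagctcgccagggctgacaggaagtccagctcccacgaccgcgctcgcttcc
In the Idh2 promoter a CCAAT box began 44 bases before the start and GC boxes began 38 and 18 bases before it. The Sucla2 promoter had a GC box at 77 bases and the Idh3b promoter a CCAAT box at 76 bases before the start. The RefSeq start of Sucla2 lies 27467 bases from the start of the gene in the expression table. Over windows that also include 50 bases after the start, 6 of the 8 members had GGGCGG and 6 had CCAAT. In the 32851 promoters searched, GGGCGG was in 35.7% and CCAAT in 37.4%. The members' windows held 50.3 to 68.3% G and C bases, against a median of 52.7% over that set. Only the Idh3b window lay below that median. These shares were not matched for base content, and its part in the counts of matches was not tested. Also searched were AAGGTCA (extended half-site of nuclear receptors, in 4.72% of that set), GCGCATG (core of the NRF1 motif, 3.91%), CACGTG (the E-box, 7.15%) and TGATGNAA (core of the ATF4 composite motif, 3.97%). These 4 motifs were in 0 of the 8 windows. A match describes the letters only and says nothing of binding.

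The other 10 enzymes of the cycle in the matrix and inner membrane were lower too, with a smaller median decrease. In limma, 6 of the 10 were called lower (Sdhb, Sdhc, Sdhd, Fh1, Idh3g and Suclg1), against 17.0% of all genes tested. None was called higher, and the median log2 fold change was -0.29. None of the 10 was positive, so 0 were higher at an unadjusted p below 0.05 or in voom. Fumarase, Fh1, fell by 0.44 (SE 0.09, adjusted p = 0.0106) and Sdhc by 0.51, the largest of the list. The count of 6 became 2 without Ctrl replicate 2, Ctrl replicate 3 or cKO replicate 1, with Sdhc and Fh1 remaining, and 1 under FPKM-total scaling.

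**Figure D3:**
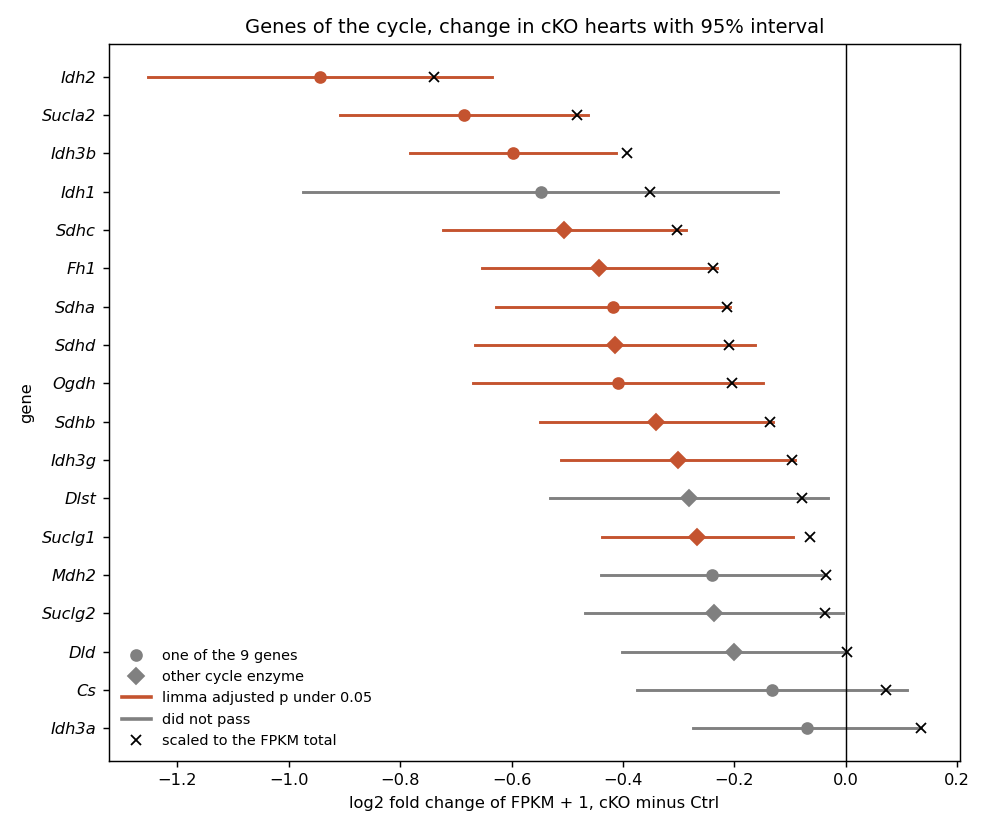
Log2 fold change of FPKM + 1 (cKO minus Ctrl, horizontal axis) of the 9 genes (circles) and 9 other cycle enzymes (diamonds) with 95% intervals; orange passed limma at an adjusted p below 0.05, and crosses are the values after scaling to the FPKM total. Idh2, Sucla2 and Idh3b had the largest decreases, and of the 9 genes Cs and Idh3a lay nearest to 0.

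Genes that feed or drain the cycle did not all move with it. Of the 4 genes of the pyruvate dehydrogenase complex, which makes acetyl-CoA, 0 were called in limma. At an unadjusted p below 0.05, 1 was higher and 2 were lower, and voom called 1 higher. Pdhb, the E1 beta subunit, was at 186, 238 and 221 FPKM in Ctrl and 255, 291 and 254 FPKM in cKO (log2 fold change 0.31, adjusted p = 0.0727), while its partner Pdha1 was at -0.28 (0.0707). Among 7 carriers of citrate, malate, oxoglutarate, aspartate and pyruvate, 5 fell, against 17.0% of all genes tested that were called lower. The aspartate/glutamate carrier Slc25a13 fell most, at -0.68 on the log2 scale (limma adjusted p = 0.00304). Slc25a11, the oxoglutarate/malate carrier, fell by 0.56, and Mpc1 and Mpc2, which form the pyruvate carrier, by 0.47 and 0.46. The citrate carrier Slc25a1 was the exception and rose by 0.48 from 3.00 to 3.54 FPKM in Ctrl to 4.26 to 5.95 FPKM in cKO (adjusted p = 0.0221).

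Of 9 cytosolic, anaplerotic and cataplerotic enzymes, 2 rose, 2 fell and 5 did not pass. Over all genes tested, 16.3% were called higher and 17.0% lower. Pck2, the mitochondrial phosphoenolpyruvate carboxykinase, was at 1.65 to 2.16 FPKM in Ctrl and 7.73 to 10.7 FPKM in cKO, a log2 fold change of 1.87 ± 0.13 (SE, limma adjusted p = 0.000428). Malic enzyme Me2 rose by 0.37 and Me3 fell by 0.64. Cytosolic malate dehydrogenase Mdh1, at 768, 870 and 808 FPKM in Ctrl and 537, 624 and 615 FPKM in cKO, fell by 0.46 (adjusted p = 0.0119), a group difference without overlap. Its mitochondrial counterpart Mdh2, above, did not pass, and the difference between the pair was not tested. All 5 genes of 2-hydroxyglutarate handling and relatives of oxoglutarate dehydrogenase fell, Ogdhl and Adhfe1 among them, by 0.41 to 1.49 on the log2 scale.

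Of the 5 tested genes listed as other possible NADPH sources, 4 rose, against 16.3% of all genes tested that were called higher. The list was chosen with earlier results of these data known. Neither the cofactor that each enzyme used nor the supply of NADPH was measured. Mthfd2l was at -0.15 on the log2 scale and did not pass. The list did not hold the malic enzymes, of which Me3 fell by 0.64, Me2 rose by 0.37 and Me1 was not called (0.17). Mthfd2, the mitochondrial methylenetetrahydrofolate dehydrogenase, was at 3.40, 2.12 and 1.43 FPKM in Ctrl and 103, 90.3 and 92.3 FPKM in cKO, a log2 fold change of 4.90 (limma adjusted p = 8.79e-05). Aldh1l2, the mitochondrial formyltetrahydrofolate dehydrogenase, rose by 2.42. G6pdx and Pgd, the NADPH-forming steps of the pentose phosphate pathway, rose by 0.69 and 0.62, and the call of Pgd was lost in 6 of 15 alternatives. Nnt, the transhydrogenase of the inner membrane, was at 0.302 FPKM on average in Ctrl and 0.118 in cKO, on 8 to 57 reads a heart. It was under the filter on low values and was not tested. Another entry of Nnt had 0 reads in every heart.

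The sum of the 9 genes was 2588, 3050 and 2797 FPKM in Ctrl and 1857, 2008 and 2062 FPKM in cKO. Idh2 alone was 28.2% ± 1.44 of that sum in Ctrl and 20.9% ± 1.65 in cKO (SD, n = 3 each). As a share of all FPKM not encoded in mitochondrial DNA, the 9 genes were 1.01% ± 0.0476 in Ctrl and 0.753% ± 0.0373 in cKO. The order of levels in Ctrl was Idh2, Ogdh, Sdha, Mdh2, Idh3b, Cs, Sucla2, Idh3a and Idh1, and of these neighbours only Idh3b and Cs overlapped. In cKO it was Idh2, Ogdh, Sdha, Mdh2, Cs, Idh3b, Idh3a, Sucla2 and Idh1, with Idh2 overlapping Ogdh and Ogdh overlapping Sdha. Idh2 was thus no longer set apart from Ogdh in cKO, and Sucla2 lay below Idh3a in place of above it.

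The 9 genes were also read against reference lists within each heart. The mean log2 FPKM of 10 mitochondrial outer membrane and import genes was higher in cKO by 0.12. In limma 4 of the 10 rose (Vdac2, Vdac3, Tomm70a and Tomm40), against 16.3% of all genes tested. Lower in cKO without overlap, though not called, were 3 of the 10, Vdac1 at -0.15, Samm50 at -0.21 and Timm23 at -0.15. Of all genes tested, 26.4% were lower without overlap. The summed FPKM of the list overlapped, at 737 to 815 in Ctrl and 750 to 772 in cKO. The mean log2 FPKM weights each gene alike, whatever its level. Relative to this mean log2 FPKM, all 9 genes were lower in cKO without overlap, from -0.19 for Idh3a and -0.26 for Cs to -1.07 for Idh2. The reference mean was itself higher in cKO without overlap, and Cs and Idh3a overlapped between the groups on FPKM alone. The mean of 10 cardiomyocyte markers was lower in cKO by 0.53 on the log2 scale. Relative to it, 4 of the 9 were lower, and only Idh2 was lower without overlap, by -0.41. Cs and Idh3a were higher without overlap, by 0.40 and 0.47. Without cKO replicate 2, 2 of the 9 were lower relative to the cardiomyocyte markers in place of 4. The share of all genes that lay apart relative to either reference list was not computed.

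**Figure D4:**
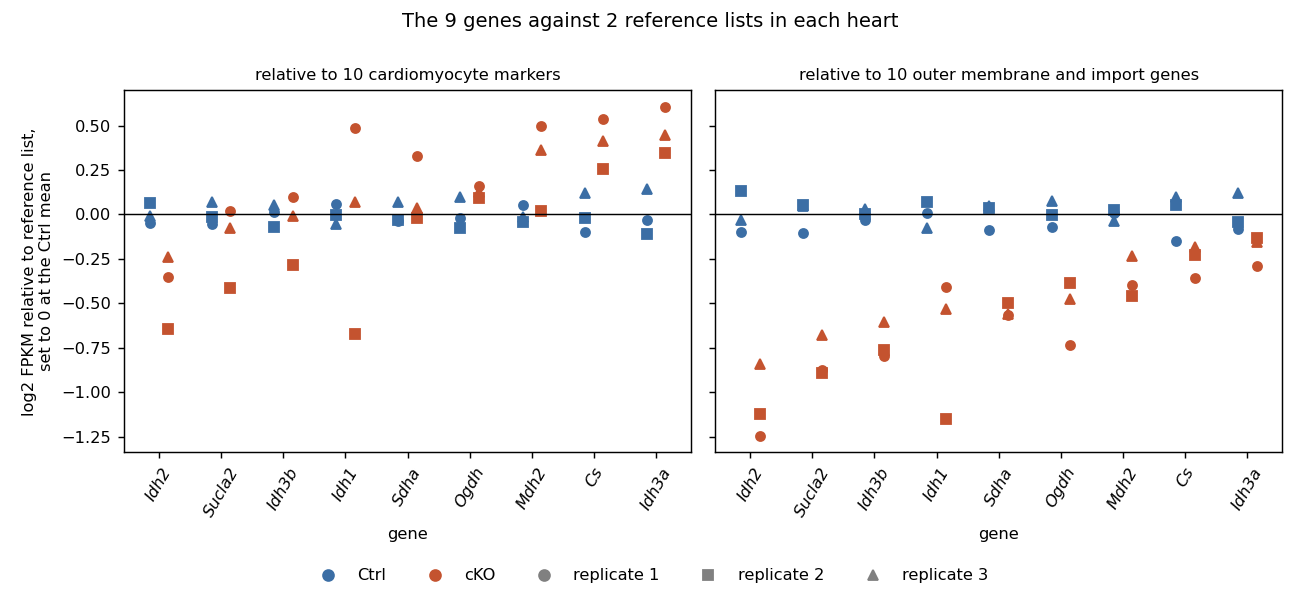
Log2 FPKM of the 9 genes minus the mean of 10 cardiomyocyte markers (left) or of 10 outer membrane and import genes (right), set to 0 at the Ctrl mean, in each Ctrl (blue) and cKO (orange) heart; the symbol gives the replicate. On the right all cKO hearts lay below all Ctrl hearts for each gene, and on the left this held for Idh2, while Cs and Idh3a lay above.

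Markers of the heart's cell types moved as well, and their part in the results above was not tested. Beside the counts below, 17.0% of all genes tested were called lower and 16.3% higher. All 10 cardiomyocyte markers were detected, and 5 of them fell (Tnnt2, Myl2, Tnni3, Ryr2 and Pln), with a summed level of 14972 to 18987 FPKM in Ctrl and 9247 to 16059 FPKM in cKO. Of 7 endothelial markers, 5 fell, with sums of 132 to 155 and 86.8 to 101 FPKM. For 8 fibroblast markers, 3 rose and 1 fell, and the sums of 162 to 189 and 163 to 195 FPKM overlapped. Of 7 macrophage markers 1 fell (160 to 232 and 135 to 196 FPKM), and of 5 tested smooth muscle and pericyte markers 1 rose and 1 fell (146 to 166 and 94.9 to 122 FPKM). The 4 atrial markers varied widely within both groups, Myl7 from 18.1 to 679 FPKM over the 6 hearts, and 0 of them were called by limma, by voom or at an unadjusted p below 0.05.

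The genes whose profile over the 6 hearts was most like that of Idh2, by root mean square distance of log2(FPKM + 1) from the Ctrl mean among 3376 protein-coding genes averaging 10 FPKM or more, were Mb (0.0405), Pcsk6 (0.0545) and Fyco1 (0.0593). Mb, the oxygen-binding myoglobin of muscle, was at 5448, 6640 and 5866 FPKM in Ctrl and 2751, 2990 and 3360 FPKM in cKO. Like Idh2, it was highest in Ctrl replicate 2 and lowest in cKO replicate 1, a likeness built in by the way it was chosen. Nearest to Ogdh were Ptprm (0.0474), Cog6 (0.0496) and Gpd1l (0.0545).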

How the data were processed

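RNA from heart tissue of 3 Ctrl and 3 cKO mice was analysed, with groups and replicate numbers taken from the sample titles. Per the labels and the study's methods, the authors made poly-A libraries with a kit that does not mark strand, sequenced paired ends, and used HISAT2 2.0.5 and featureCounts 1.5.0-p3. For their own test the authors used DESeq2, given as version 1.16.1 in the submitters' processing notes and as another version in the study's methods. The deposited values are FPKM per gene. Their notes name build mm9, but 98.3% of the 54495 gene identifiers shared with GENCODE M21 had the start and end of GRCm38, and coordinates are given as in the table. Treatment of reads with several alignments is not given in the sources used here.

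Multiplying FPKM by gene length gave whole reads for 100% of values (within 0.01), on the depths given above. Genes averaging 0.5 FPKM or more were tested as log2(FPKM + 1) with limma 3.58.1 (R 4.3.3), with an intensity trend, 2 groups and no covariates. This scale understates changes of low genes. Ratios within a heart were tested in scipy 1.17.1. No replicates were duplicates, the chi-square per gene between them being 13.2 to 43.1. Scripts were tested on simulated data. The named genes were the members, the listed genes, Mrps5 and the 3 protein-coding genes nearest to Idh2 and to Ogdh in profile. Values of some listed or neighbouring genes are not reported here. Members and lists were chosen with earlier results of these data known. Alternatives were the pseudocount, the filter, scaling, the trend, voom on recovered reads, a replicate block and leaving out each heart.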

Additional observations from a re-analysis of the deposited data

How the results depend on the processing

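Idh2, Idh3b and Sucla2 were lower, at an adjusted p below 0.05 in limma, under all 15 alternatives, Idh2 with log2 fold changes from -1.04 to -0.74. Scaling to the FPKM total, chosen after seeing the data, left 3 of the 9 genes and 1 of the other cycle enzymes lower, with 1156 genes lower and 3721 higher over the table, and a difference in the summed FPKM of -494 in place of -836. Under it the log2 fold change of Cs was 0.0714 and that of Idh3a 0.135, and Idh3a was at 0.0191 with scaling to genes not encoded in mitochondrial DNA. With no filter, 3 other cycle enzymes were lower and Ogdh lost its call (adjusted p = 0.0777). Voom on recovered reads called 2247 genes lower and 2288 higher, and added Idh1 (adjusted p = 0.0382).

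Leaving out 1 heart at a time gave 4 to 6 of the 9 genes lower, 2 to 5 of the other cycle enzymes lower, 2 to 4 of the 9 lower relative to cardiomyocyte markers, 1423 to 2011 genes lower and 1396 to 1977 higher. The lowest counts of lower genes came without Ctrl replicate 2, and of higher genes without Ctrl replicate 3. The difference in the Idh2 share of Idh1 and Idh2 ranged from -1.66 to -0.355 percentage points, and that of Idh2 and Idh3a from -10.0 to -8.21. Same-numbered hearts did not deviate together (correlations of -0.06, 0.17 and -0.01). This cannot exclude a pairing, because paired hearts need not deviate alike, and the paper describes its controls as littermates. With a replicate block, 5 of the 9 and 5 of the other cycle enzymes were lower, with 1982 genes lower and 1874 higher. At 3 hearts a group, the exact permutation test cannot pass 0.05. What caused these shifts was not tested.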
